A study of Mus musculus with 6 samples.

Results

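The myosin light chain genes described here and the gene of their kinase are the 8 entries of the deposited table, out of 23367, whose symbols are Myl1, Myl2, Myl3, Myl4, Myl6, Myl6b, Mylpf and Mylk2. They were found in the table by symbol, with earlier results of these data known, and all 8 passed the filter on low counts. RNA-seq of poly(A) RNA was done on gastrocnemius, a mostly fast muscle of the calf, from FVB mice that were wild type, with no treatment named in the labels. The E18.5 library (embryonic day 18.5) pooled animals of both sexes and the PN2 library (postnatal day 2) pooled males. The 2 PN14 libraries (postnatal day 14) were each from 1 male mouse, as were the PN28 library (postnatal day 28) and the adult library (22 weeks). PN14 was therefore the only stage with replicates, and every test below takes its spread from that pair, shared across genes. In the main test (edgeR quasi-likelihood) a gene's own pair gave 1 degree of freedom, beside a median of 4.86 borrowed from all genes. Pooling and the mix of sexes at E18.5 cannot be told apart from the stage, nor can the sequencing lane, since each library had its own.

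A myosin motor carries an essential and a regulatory light chain on the neck of each heavy chain, where they stiffen the lever arm. Muscle fibres choose among paralogs of both chains by fibre type and age, and heart, smooth muscle and non-muscle cells use others or share them. Myl1 encodes the fast essential light chains, Myl3 the slow and ventricular form, Myl4 the embryonic and atrial form, and Myl6 and Myl6b forms best known from smooth muscle and non-muscle cells. Mylpf encodes the fast regulatory light chain and Myl2 the slow and ventricular one. Mylk2 encodes the skeletal muscle myosin light chain kinase, which is switched on by calcium and calmodulin and phosphorylates the regulatory light chain, a step known to raise the force of fast fibres at submaximal calcium.

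In the mm9 gene models (GENCODE M1) the genes lie on 7 chromosomes. Myl1 spans chr1:66970869-66991978 on the minus strand, Mylk2 chr2:152737088-152748804, Myl2 chr5:122550960-122563481, Mylpf chr7:134355122-134357812, Myl3 chr9:110666150-110672308 and Myl4 chr11:104411977-104457067, these 5 on the plus strand. Myl6 (chr10:127927916-127930931) and Myl6b (chr10:127931213-127935741) stand in tandem on the minus strand with 281 bases between them. Myl1 has start sites far apart, and its transcripts Myl1-001 (start at 66991717) and Myl1-002 (start at 66981928) code for 188 and 150 residues. The deposited values are 1 per gene, so they do not separate products of these start sites.

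The light chains fall into 2 groups by sequence, shown here because the counts depend on telling close paralogs apart. Translated from the gene models, essential chains were 63.7% to 78.2% identical to each other, with Myl3 and Myl4 the closest pair, and Myl2 and Mylpf were 74.7% identical. An essential and a regulatory chain shared 28.4% to 34.3% of residues. The longest run of bases shared by transcripts of any 2 light chain genes was 46, between Myl6 and Myl6b, which is shorter than a read of 100 bases. It lies in coding exon 3 of Myl6 (chr10:127929678-127929723) and exon 4 of Myl6b (chr10:127933329-127933374), and is given below in capitals with 7 flanking bases on each side:
Myl6: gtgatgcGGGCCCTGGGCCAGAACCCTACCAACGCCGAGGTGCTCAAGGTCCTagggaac
Myl6b: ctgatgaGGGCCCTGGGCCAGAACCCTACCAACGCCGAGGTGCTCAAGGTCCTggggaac

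The counts on genes were 125402932 to 157868359 per library, so the precision of the members was set by the spread between animals and not by counting: the lowest count of any member was 497, for Myl4 in the adult library (95% Poisson interval 454 to 543, counting error only). FPKM are the authors' values per length and per library size, and are used here to compare genes within a library. For tests, counts were scaled with TMM factors, which ran from 1.45 at E18.5 and PN2 to 0.714 in the adult library, and TMM-scaled values are given as CPM. The choice of scaling bears on direction. With library size alone the median gene had a log2 fold change of -0.66 from PN2 to PN14, -0.92 from PN2 to PN28 and -1.08 from E18.5 to adult, against -0.01, -0.04 and -0.05 with TMM. A gene was called when its adjusted p (Benjamini-Hochberg over 16882 genes, edgeR quasi-likelihood test) was under 0.05 and its log2 fold change at least 1 in size. The tissue label was checked against marker genes. The 9 fast fibre markers summed to 13776 FPKM at E18.5 and 106500 in the adult library, the lowest and highest sums among the libraries. Of 6 heart markers, Nppa, Nppb, Myl7 and Ryr2 did not exceed 0.33 FPKM in any library and Tnni3 did not exceed 2.42, but Myh6 was at 13.1 to 51.3 and rose from PN2 to PN14 by 1.45 ± 0.29 (log2, adjusted p = 0.018).

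The 8 genes together took 1.30% of counts at E18.5, 1.42% at PN2, 4.21% and 3.71% at PN14, 4.11% at PN28 and 2.66% in adult muscle. In bulk tissue, a change in how many cells of a type are present and a change in RNA per cell cannot be told apart. From PN2 to PN14, 3 of the 8 were called, Myl2 and Myl3 upward and Myl4 downward, where 23.0% of all genes tested were called. From E18.5 to adult, 5 of 8 were called, against 44.9% of all genes. Mylk2 and Myl2 rose, and Myl4, Myl6 and Myl6b fell. From PN2 to PN28, 3 of 8 were called, against 27% of all genes, with Mylk2 up and Myl4 and Myl6b down. With library size alone the members called were 4 up and 1 down from PN2 to PN14, where 34.5% of all genes were called (854 up and 4971 down). They were 3 up and 3 down from PN2 to PN28, against 42.4% of all genes (852 up and 6299 down), and 2 up and 3 down from E18.5 to adult, against 53.6% (1347 up and 7700 down). With 8 genes, none of these shares is read as particular to the family. None was called by edgeR's quasi-likelihood test in the interval E18.5 to PN2 (0.0296% of all genes called), in PN14 to PN28 (0.0178%) or in PN28 to adult (0.521%). Before adjustment, 0, 3 and 1 of the 8 had a p under 0.05 in those 3 intervals, against 6.64%, 8.41% and 18.3% of all genes. The Wald test of DESeq2 and the exact test of edgeR each called 0, 1 and 1, the single gene being Myl6b in both later intervals. Of all genes the former called 0.977%, 0.8% and 4.79% and the latter 2.05%, 1.43% and 6.79%.

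**Figure D1:**
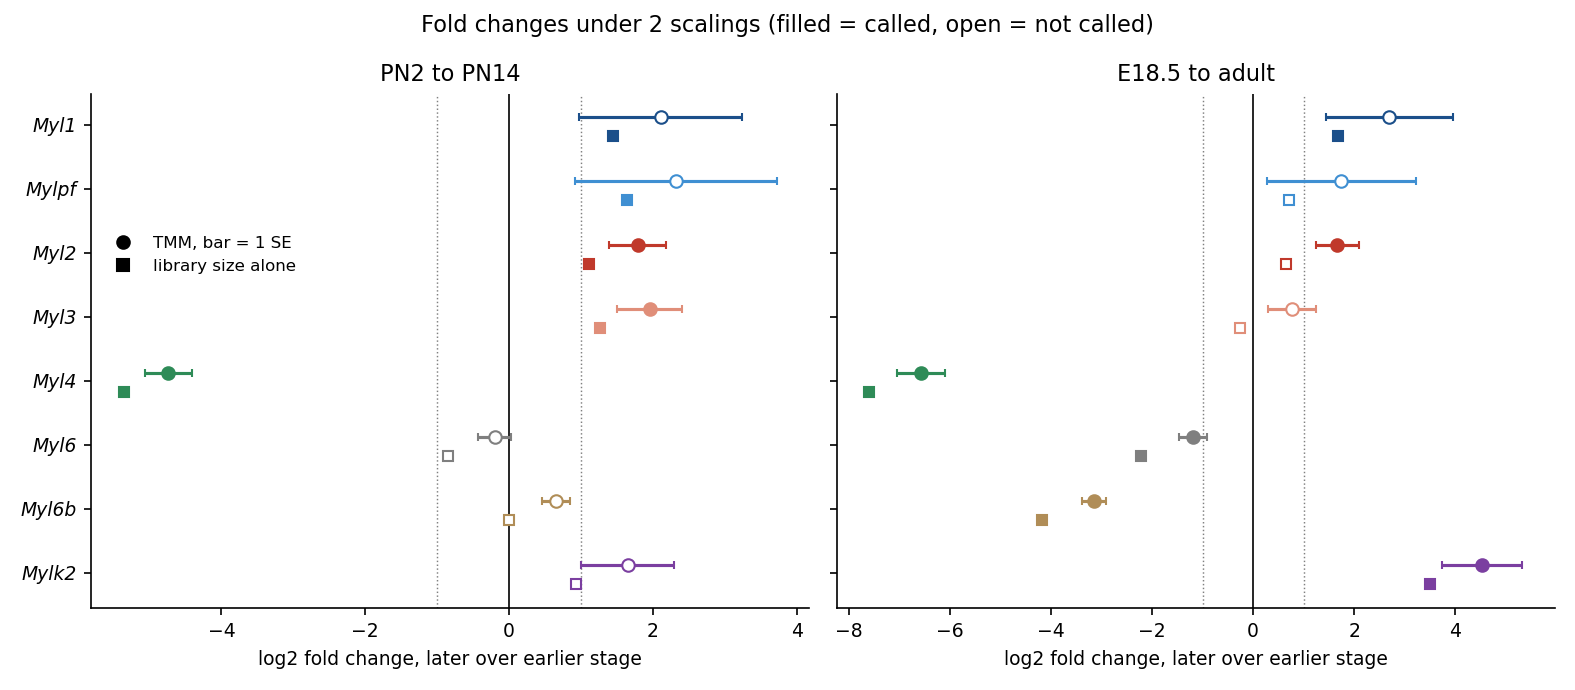
Log2 fold change (horizontal) of each gene from PN2 to PN14 on the left and from E18.5 to adult on the right. Circles are TMM values with 1 SE, squares are values with library size alone, filled symbols passed both thresholds and dotted lines mark a 2-fold difference. Myl4 is the lowest in both panels, at -4.73 and -6.57 with TMM.

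**Figure D2:**
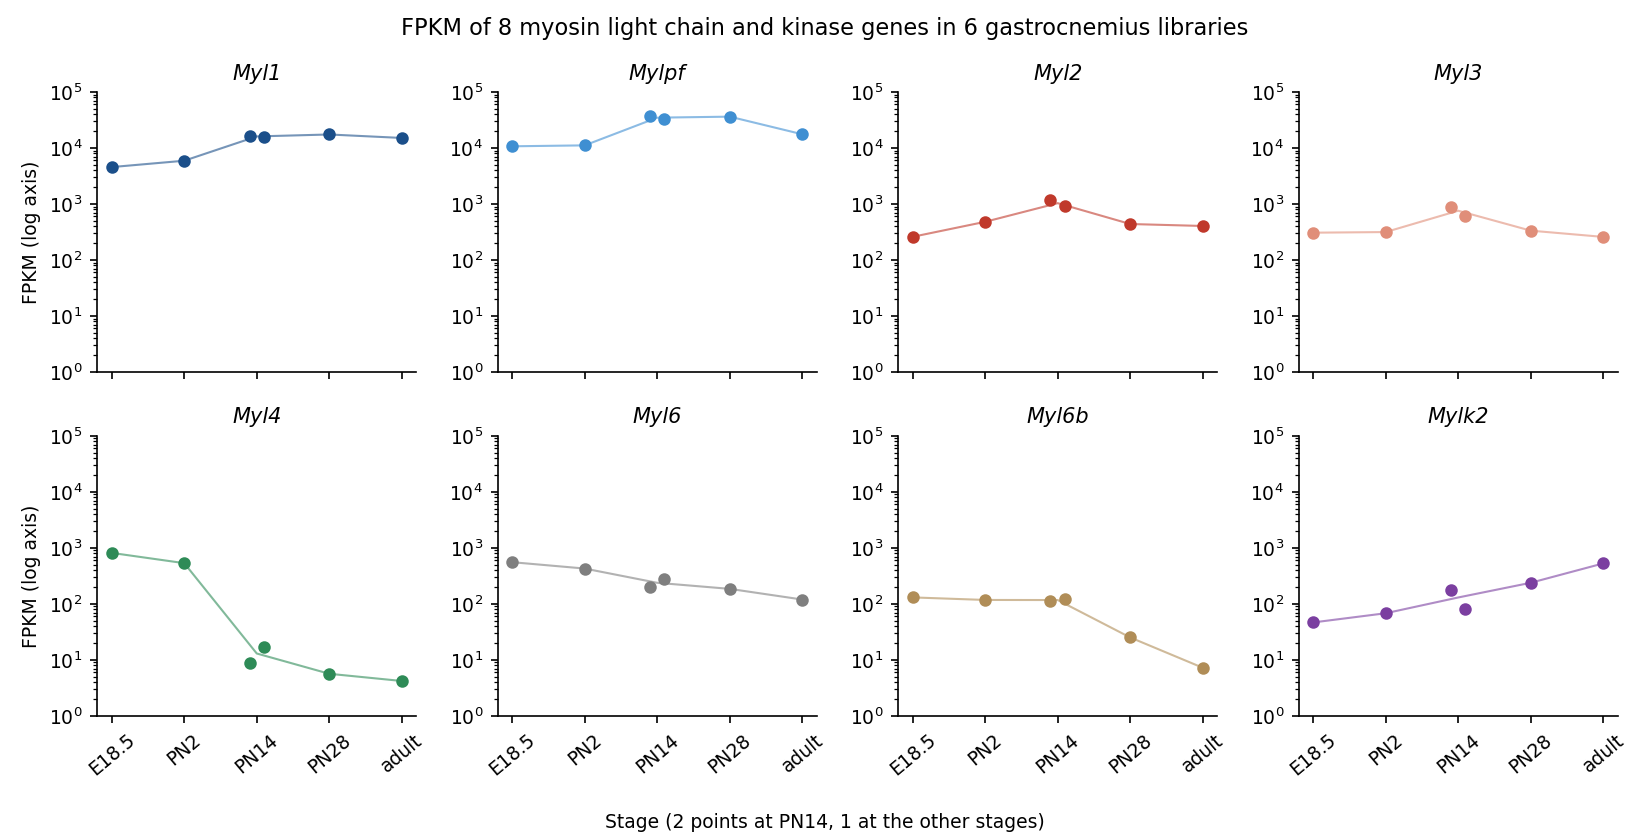
FPKM (vertical, log axis) of each of the 8 genes against stage, with 1 point per library, 2 of them at PN14, and a line through the stage means. Myl4 ran from 814 at E18.5 to 4.20 in the adult library, while Mylk2 ran from 46.7 to 529.

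Myl1 and Mylpf, the fast essential and regulatory light chains, were the most abundant members in every library. Myl1 stood at 4562 FPKM at E18.5, 5924 at PN2, 16624 and 15546 at PN14, 17434 at PN28 and 15109 in adult muscle. Both perinatal libraries were thus below the 4 later ones, and the later ones lay close to each other. Mylpf stood at 10722 FPKM at E18.5, 11142 at PN2, 37263 and 32367 at PN14, 36286 at PN28 and 17586 in adult muscle. Its adult value lay between the perinatal ones and those of PN14 and PN28, and so did that of Myl1, which lay closer to its PN14 and PN28 values. Among all genes Mylpf ranked 1 or 2 by FPKM in the 5 libraries up to PN28 and 6 in the adult library.

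The difference between PN2 and PN14 in this fast pair did not pass the quasi-likelihood test. The log2 fold change from PN2 to PN14 was 2.11 ± 1.14 (SE) for Myl1 (adjusted p = 0.199) and 2.32 ± 1.40 for Mylpf (adjusted p = 0.243). Both standard errors were large beside those of the other members, in a fit with 1 residual degree of freedom. They do not measure how far a gene's own PN14 pair differed. In log2 CPM the SD of that pair was 0.25 for Myl1 and 0.33 for Mylpf. It was 0.97 for Mylk2, whose standard error from PN2 to PN14 was 0.65. The call depended on the test. From PN2 to PN14, both genes were called with DESeq2's Wald test (adjusted p = 1.16e-11 and 6.65e-13), with edgeR's exact test (7.15e-06 and 3.02e-06) and with library size alone in the same edgeR fit (2.17e-05 and 5.28e-07). The PN14 replicates differed by a factor of 1.07 for Myl1 and 1.15 for Mylpf in FPKM. In TMM-scaled CPM, the scale of the test, the factors were 1.28 and 1.38. From E18.5 to adult the log2 fold change was 2.70 ± 1.26 for Myl1 (adjusted p = 0.116) and 1.74 ± 1.47 for Mylpf (adjusted p = 0.352). Over that span too, both were called with DESeq2's Wald test (adjusted p = 9.57e-15 and 3.57e-06) and edgeR's exact test (4.70e-08 and 0.000638). With library size alone Myl1 was called (1.67) and Mylpf was not (0.71).

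The promoter of Mylpf is shown with the motifs searched for in capitals. RefSeq gave windows for 7 of the 8 members, 9 in all, and the 250 bases before each start were searched on both strands for the E-box (CANNTG), the MCAT box (CATTCC), the TATA box (TATAAA), the CArG box and the MEF2 site. The window of Mylpf, found by exact match at chr7:134354872-134355121 (mm9, plus strand), held an E-box 51 bases before the start and no other of these motifs:
Mylpf: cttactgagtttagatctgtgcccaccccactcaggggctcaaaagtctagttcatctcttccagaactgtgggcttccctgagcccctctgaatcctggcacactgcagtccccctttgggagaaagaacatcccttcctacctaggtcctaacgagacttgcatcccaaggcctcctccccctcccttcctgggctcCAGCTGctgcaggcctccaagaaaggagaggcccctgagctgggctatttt
E-boxes were in 66.2% of 32851 such windows. The window of Myl1 held an E-box, an MCAT box and a TATA box, the last 2 being in 12.6% and 12.4% of windows, but 103 of its 250 bases lie in annotated exons of Myl1 in the mm9 models.

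Myl2 and Myl3, the slow and ventricular pair, lay far below the fast pair and were highest at PN14. Myl2 was at 259 FPKM at E18.5, 481 at PN2, 1159 and 910 at PN14, 439 at PN28 and 405 in adult muscle. Both PN14 libraries were above the other 4. Myl3 was at 307 and 315 FPKM in the perinatal libraries, 895 and 621 at PN14, 334 at PN28 and 258 in adult muscle, with the same 2 libraries on top. The pair rose together from PN2 to PN14, Myl2 by 1.79 ± 0.39 and Myl3 by 1.95 ± 0.45 on the log2 scale (SE, edgeR adjusted p = 0.0225 and 0.0248), 3.45-fold and 3.87-fold.

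After PN14 the values of the slow pair were lower, without passing the test. From PN14 to PN28 the log2 fold change was -1.03 ± 0.38 for Myl2 and -0.98 ± 0.42 for Myl3 (adjusted p = 0.573 and 0.61). With library size alone both were called in that interval, at -1.24 and -1.18. Over the whole course Myl2 rose by 1.67 ± 0.43 from E18.5 to adult (adjusted p = 0.0196), but with library size alone the value was 0.64 and was not called. Myl3 was at 0.78 ± 0.47 (adjusted p = 0.208), and at -0.25 with library size alone, so its direction depended on the scaling. The 6 slow fibre markers summed to 2511 FPKM at E18.5, 2164 at PN2, 2481 and 2108 at PN14, 914 at PN28 and 808 in adult muscle, and their part in the result was not tested. Myh7, the slow heavy chain, was also highest in the PN14 libraries, at 403 and 363 FPKM, with 207 and 220 before and 137 and 115 after, and its log2 fold change from PN2 to PN14 was 1.47 ± 0.51 (adjusted p = 0.0753). Myl2 and Myl3 are also heart genes, and the heart markers Nppa, Nppb, Myl7 and Ryr2 were near 0 in these same libraries. The remaining heart marker with a sizeable level, the heavy chain Myh6, ran from 13.1 to 51.3 FPKM and was highest at PN14 too.

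The Myl3 window (chr9:110665932-110666149, mm9, plus strand, ending where the annotated first exon begins) held 4 matches, the most among the members' windows: an E-box, 2 MCAT boxes and a CArG box, the last in 1.47% of all windows:
Myl3: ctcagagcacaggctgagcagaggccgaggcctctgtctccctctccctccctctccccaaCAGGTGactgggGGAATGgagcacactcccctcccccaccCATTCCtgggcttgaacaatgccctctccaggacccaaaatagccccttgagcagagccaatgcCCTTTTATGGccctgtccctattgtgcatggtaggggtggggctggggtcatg
The window of Myl4 held none of the 5 motifs, and 208 of its 250 bases lie in annotated exons of Cdc27. The windows of Myl2 lie well before the start of its mm9 gene model, and their matches are not described. No member's window held the MEF2 motif, which was in 2.92% of all windows.

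Myl4, the embryonic and atrial essential light chain, had the steepest course of the 8. It was at 814 FPKM at E18.5 and 534 at PN2, then at 8.79 and 17.2 in the PN14 libraries, 5.65 at PN28 and 4.20 in adult muscle. The 2 perinatal libraries did not come near the other 4, and the E18.5 value was 194 times the adult one. In TMM-scaled CPM the perinatal values were 465 and 305 and the later ones 4.88 to 14.2. Myl4 fell by 4.73 ± 0.33 on the log2 scale from PN2 to PN14 (adjusted p = 0.00301), 26.6-fold, and by 6.57 ± 0.48 from E18.5 to adult (adjusted p = 0.0012), 95.2-fold. Its later steps were small beside that one, with a log2 fold change of -0.94 ± 0.35 between PN14 and PN28 and -0.29 ± 0.39 between PN28 and adult, neither called. PN14 replicate 1 was at 0.51 of replicate 2 in FPKM, and with 1 replicate left out the log2 fold change from PN2 was -4.42 or -5.14.

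The 5 markers of embryonic and neonatal fibres are given beside this fall, and their part in it was not tested. They were at 9653 FPKM in sum at E18.5, 7052 at PN2, 2196 and 3540 at PN14, 2875 at PN28 and 14.9 in adult muscle. Most of the sum after PN2 was Actc1, the cardiac actin of immature fibres, at 2166 and 3465 FPKM at PN14, while Chrng, the fetal acetylcholine receptor subunit, was at 0.89 and 1.92 there after 56.1 at PN2. From PN2 to PN14, 4 of the 5 markers fell, as did 1896 of the 16882 genes tested. Myl7, the atrial regulatory light chain that pairs with Myl4 in the heart, was at 0.31 and 0.33 FPKM in the perinatal libraries and listed at 0.05 or 0 after them.

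Myl6 and Myl6b, the tandem genes of chromosome 10, both had their highest FPKM at E18.5 and their lowest in the adult library but took different routes. Myl6 was at 556 FPKM at E18.5, 428 at PN2, 198 and 278 at PN14, 186 at PN28 and 120 in adult muscle. No 2 neighbouring stages were called different for it. From E18.5 to adult it fell by 1.19 ± 0.27 on the log2 scale (adjusted p = 0.013), 2.28-fold. Myl6b was at 131, 118, 111 and 123 FPKM in the first 4 libraries, then 25.2 at PN28 and 7.24 in adult muscle. The PN28 and adult libraries were thus below the 4 earlier ones, which differed little in FPKM. In TMM-scaled CPM Myl6b was at 87.4 at E18.5, 78.8 at PN2, 129 and 119 at PN14, 31.2 at PN28 and 9.87 in adult muscle. Its highest stage therefore depended on the scaling.

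Myl6b fell by 1.34 ± 0.22 from PN2 to PN28 (adjusted p = 0.011) and fell by 3.15 ± 0.23 from E18.5 to adult (adjusted p = 0.0012), 8.86-fold. The intervals that hold this difference were not called: the log2 fold change was -1.99 ± 0.20 between PN14 and PN28 (adjusted p = 0.129) and -1.66 ± 0.22 between PN28 and adult (adjusted p = 0.0511). Both passed with the Wald test of DESeq2 (1.54e-09 and 2.23e-05), the exact test of edgeR (2.04e-09 and 4.53e-06) and library size alone (8.88e-08 and 8.9e-05). From PN2 to PN14 its value was 0.65 ± 0.19 with TMM (adjusted p = 0.0473, under the fold threshold) and -0.0044 with library size alone, so no direction can be given for that step.

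Markers of other cells that use Myl6 differed between the stages as well. The 6 smooth muscle markers summed to 650 FPKM at E18.5, 507 at PN2, 260 and 415 at PN14, 218 at PN28 and 101 in adult muscle, the same order over the libraries as Myl6. The 6 fibroblast markers summed to 6087 and 4980 FPKM in the perinatal libraries and to 516 in the adult one. From E18.5 to adult, 3978 of the 16882 genes tested fell and 3606 rose. Of the markers, 3 of 6 for smooth muscle and 5 of 6 for fibroblasts fell, and none rose. The part of these cells in the Myl6 and Myl6b values was not tested.

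Mylk2, the kinase gene, ran the other way. It was at 46.7 FPKM at E18.5, 68.1 at PN2, 178 and 82.2 at PN14, 238 at PN28 and 529 in adult muscle. The PN14 replicates differed 2.17-fold, more than for any other member, and their range did not reach the libraries on either side. Mylk2 rose by 2.70 ± 0.73 from PN2 to PN28 (adjusted p = 0.0381), 6.48-fold, and by 4.53 ± 0.80 from E18.5 to adult (adjusted p = 0.00567), 23.1-fold. DESeq2's Wald test did not call the former (adjusted p = 0.107). No interval between neighbouring stages was called. From PN2 to PN14 the value was 1.65 ± 0.65 (adjusted p = 0.101), and it was 0.80 without replicate 1 and 2.17 without replicate 2. From PN28 to adult it was 1.29 ± 0.70 (adjusted p = 0.395).

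Mylk2 was not the sole kinase gene of the family in this muscle. Mylk4, a related kinase of striated muscle, was at 72.1 FPKM at E18.5, 73.3 at PN2, 61.3 and 27.1 at PN14, 259 at PN28 and 551 in adult muscle. Its values at PN28 and in the adult library lay close to those of Mylk2, and its PN14 replicates differed in the same direction. Mylk4 rose from PN2 to PN28 by 2.71 ± 0.81 (adjusted p = 0.0495) and from E18.5 to adult by 3.96 ± 0.86 (adjusted p = 0.0114). Mylk, the kinase of smooth muscle and non-muscle cells, was between 3.25 and 10.1 FPKM, and Mylk3, the cardiac kinase, was at 2.37 FPKM or less and fell by 2.52 ± 0.44 from E18.5 to adult (adjusted p = 0.00568).

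**Figure D3:**
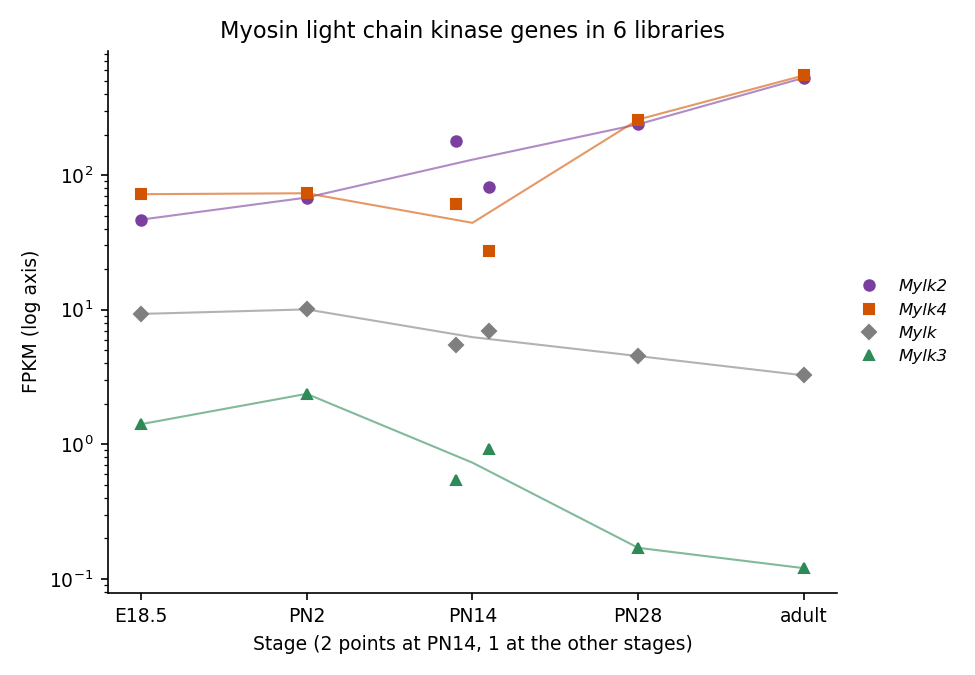
FPKM (vertical, log axis) of 4 myosin light chain kinase genes against stage, with 1 point per library, 2 of them at PN14, and lines through the stage means. Mylk2 and Mylk4 reached 529 and 551 in the adult library, while Mylk and Mylk3 were at 3.25 and 0.12 there.

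Shares within a library do not depend on how libraries are scaled to each other, and are given as a description with no test. Of the FPKM of the 5 essential light chain genes, Myl1 took 71.6% at E18.5, 80.9% at PN2, 93.5% ± 0.4 (SD, n = 2) at PN14, 96.9% at PN28 and 97.5% in adult muscle. Its share was larger at each later stage. Myl4 took 12.8% at E18.5 and 7.30% at PN2, and 0.08% ± 0.04 at PN14. Myl3 took 4.38% ± 0.90 at PN14, with 4.82% and 4.31% before and 1.86% and 1.67% after, so its share was lower from PN28 on and not higher at PN14. Myl6 went from 8.72% at E18.5 to 0.77% in the adult library. Among the 2 regulatory light chain genes of the sarcomere, Mylpf took 95.9% to 98.8% in every library, with the remainder from Myl2.

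**Figure D4:**
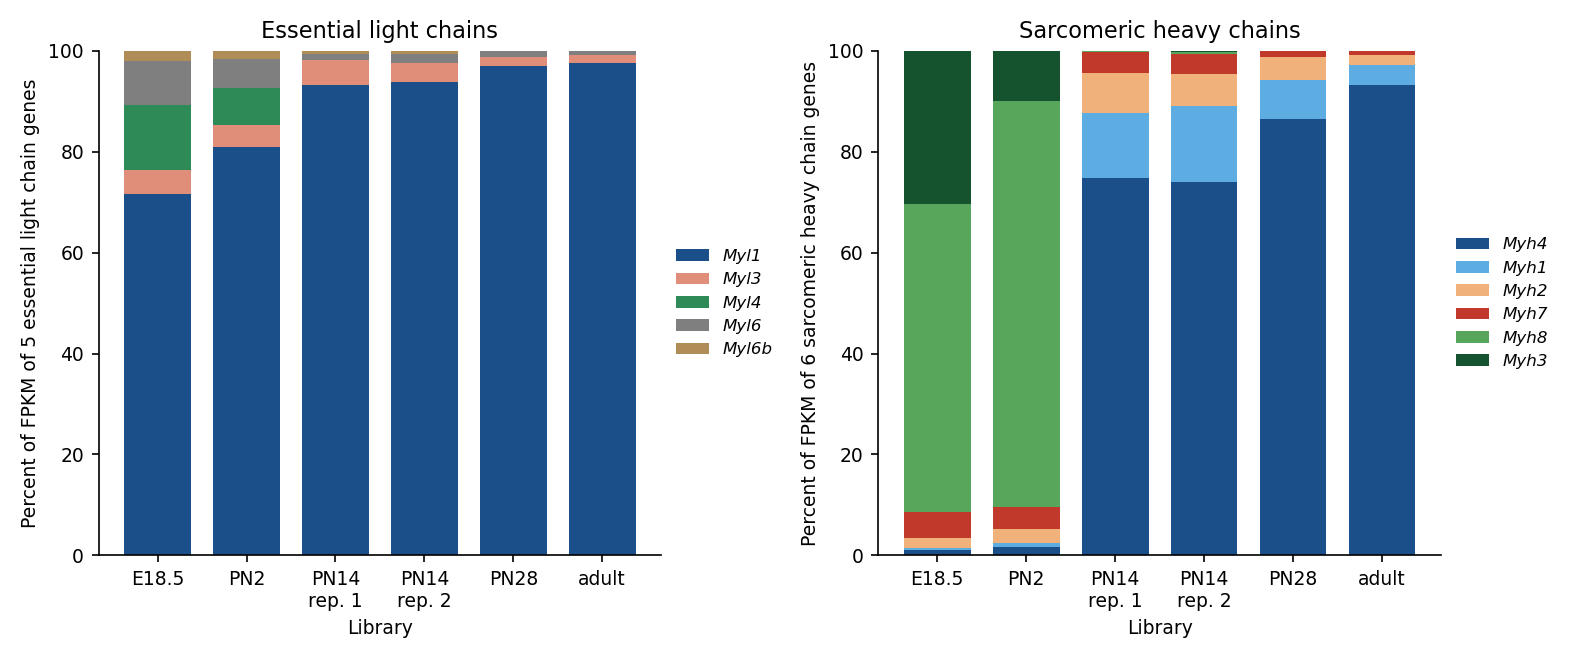
Bars give, per library, the percent of FPKM (vertical) taken by each of 5 essential light chain genes on the left and each of 6 sarcomeric heavy chain genes on the right, starting at 0. Myl1 was the main essential chain from E18.5 on, at 71.6% or more, while the heavy chains changed from Myh3 and Myh8 to Myh4 between PN2 and PN14.

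Light and heavy chains were not alike in when the fast forms dominated. Myh3 and Myh8, the embryonic and perinatal heavy chains, held 91.5% of the FPKM of 6 sarcomeric heavy chain genes at E18.5 and 90.5% at PN2, and 0.20% and 0.62% in the PN14 libraries. The fast heavy chains Myh1, Myh2 and Myh4 held 3.49% and 5.17% before PN14 and 95.4% or more from PN14 on. At E18.5 and PN2, when these fast heavy chains were under 6% of their class, the fast light chains Myl1 and Mylpf already held 71.6% to 97.6% of theirs. The share of Myl4 was at most 12.8% where that of Myh3 and Myh8 was over 90%. Myh7 held 5.02% and 4.35% before PN14, 4.08% ± 0.17 at PN14, and 1.24% and 0.89% after, a course close to that of the Myl3 share.

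The adult library stood apart in the balance between the members. Mylpf was 2.35 times Myl1 in FPKM at E18.5, 1.88 at PN2, 2.24 and 2.08 at PN14 and 2.08 at PN28, but 1.16 in the adult library. Essential over regulatory chains, summed, was 0.46 to 0.63 in the 5 earlier libraries and 0.86 in the adult one. The essential sum includes Myl6 and Myl6b, while the regulatory sum is Mylpf and Myl2 alone, without regulatory chains of other cells. Regulatory light chains over sarcomeric heavy chains was 2.66 at E18.5, 2.30 at PN2, 4.0 and 3.63 at PN14 and 3.35 at PN28, and 1.39 in the adult library. The kinase per regulatory chain was highest there, with 30.1 Mylk2 FPKM per 1000 of Mylpf against 2.54 to 6.57 in the other libraries. Myl6 over Myl6b was 16.5 there and 7.38 at PN28, against 1.78 to 4.25 before. The adult stage is a single library, so these ratios have no replicate check, and stage and library cannot be told apart. The lower adult value of Mylpf that enters them was not called against PN28 with TMM (-0.91 ± 1.45, adjusted p = 0.784), although it was with library size alone (-1.05, adjusted p = 0.0249).

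**Figure D5:**
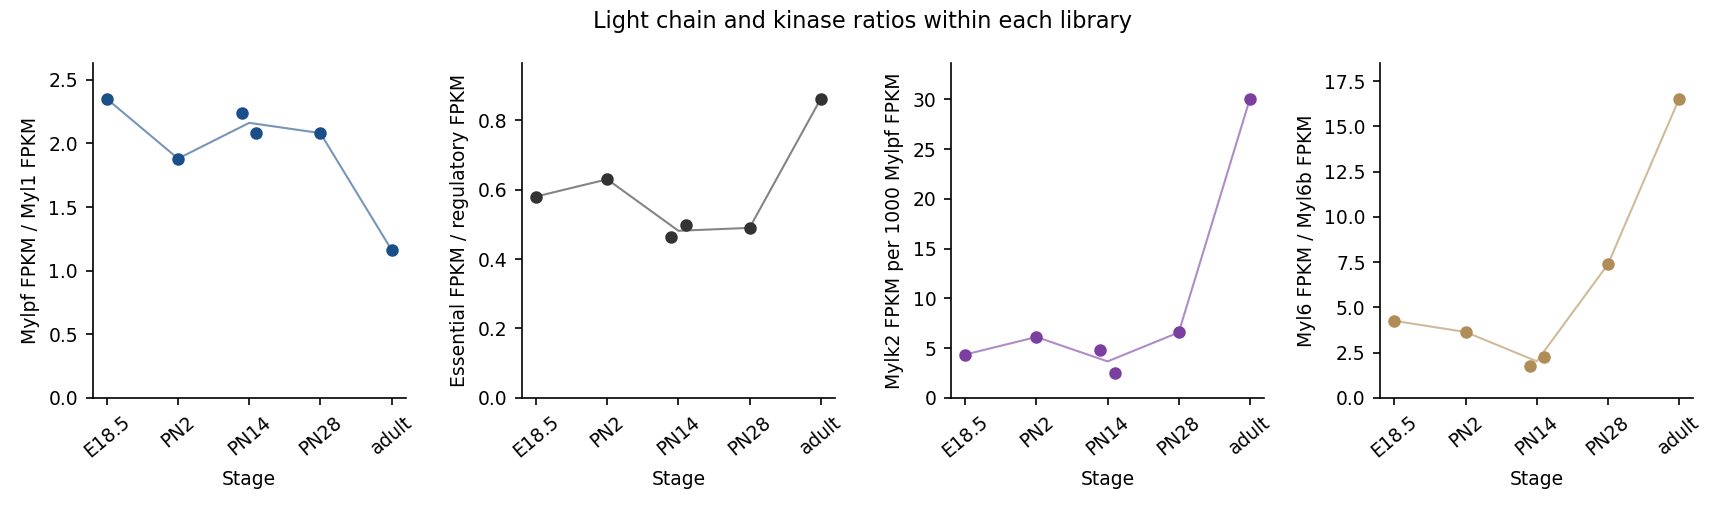
Ratios of FPKM within each library (vertical, from 0) against stage, with 1 point per library, 2 of them at PN14, and lines through the stage means. The adult library has the lowest Mylpf over Myl1, at 1.16, and the highest value in the other 3 panels.

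The other genes of the pathway were followed as a list of 31: 5 further light chains, 8 kinases and calmodulins, 5 subunits or inhibitors of myosin phosphatase, and 13 heavy chains, all tested. From PN2 to PN14, 5 rose and 4 fell, with a list median of 0.08 against -0.01 for all genes (3 and 8 with library size alone). Of all genes tested, 23.0% were called, and 34.5% with library size alone. Of the 9 list genes called with TMM, 7 were heavy chains: Myh1, Myh2 and Myh6 rose, and Myh3, Myh8, Myh7b and the non-muscle Myh10 fell. From E18.5 to adult, 9 rose and 7 fell (median 0.01 against -0.05), and 6 and 16 did with library size alone. The shares of all genes called were 44.9% and 53.6%. From PN2 to PN28, 5 rose and 5 fell (median -0.03 against -0.04), and 4 and 12 did with library size alone. Over that span 27% of all genes were called, and 42.4% with library size alone. In the other 3 intervals edgeR's quasi-likelihood test called none of the 31. Before adjustment, 5 had a p under 0.05 in the interval E18.5 to PN2, 8 in PN14 to PN28 and 6 in PN28 to adult, of 31 each, against 6.64%, 8.41% and 18.3% of all genes. The Wald test of DESeq2 called 2, 3 and 3 of them, and the exact test of edgeR 3, 6 and 4. Over all genes the Wald test called 0.977%, 0.8% and 4.79%, and the exact test 2.05%, 1.43% and 6.79%.

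Calm3, which encodes calmodulin, the activator of the kinase, rose by 1.70 ± 0.37 from E18.5 to adult (adjusted p = 0.011), although with library size alone its value was 0.68 and was not called. Calm2 was at 296 FPKM at E18.5 and 147 in the adult library. It was not called with TMM (0.01), but was called as a fall with library size alone (-1.01, adjusted p = 0.0124). On the side of the phosphatase that removes the phosphate, Ppp1cb, the catalytic subunit, rose by 1.52 ± 0.34 and Ppp1r12b, the striated muscle targeting subunit, by 1.28 ± 0.22 from E18.5 to adult (adjusted p = 0.0121 and 0.0055), and neither was called with library size alone (0.50 and 0.26). Ppp1r14a, an inhibitor best known from smooth muscle, fell by 1.10 ± 0.34 (adjusted p = 0.0359). Of the further light chains, Myl9 of smooth muscle fell by 2.23 ± 0.26 (adjusted p = 0.00198), and Myl12a and Myl12b of non-muscle cells were not called with TMM. With library size alone Myl12b was called as a fall (-1.64, adjusted p = 0.000105), and Myl12a, at -0.996, was not called.

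The members were also compared with all genes by the shape of their course, as the root mean square difference of log2 TMM-scaled CPM, centred on the gene's own mean, over 5 stages. This is a description over 5 points in 6 libraries. Within the family, Myl2 and Myl3 were the closest pair at 0.32, and Myl1 and Mylpf followed at 0.34. Myl4 had no near relative, its nearest member being Myl6b at 2.31. Among 9869 other genes, the closest to Myl1 was Cebpb (0.08), to Mylpf Dupd1 (0.12), to Myl2 Lingo3 (0.14) and to Myl3 Ushbp1 (0.12). Lingo3 and Ushbp1 were low, at 13.3 FPKM or less. The closest to Myl4 was Cldn2 (0.25), to Myl6 Smarcd2 (0.02) and to Myl6b 5930412G12Rik (0.04). Cldn2 and 5930412G12Rik were low too, at no more than 5.33 and 9.23 FPKM. The closest to Mylk2 was Gpcpd1 (0.11), which ran from 8.98 FPKM at E18.5 to 96.8 in the adult library. Chosen by Pearson correlation instead, 2 of the 24 named neighbours, 3 per member, would have been the same.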

How the data were processed

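Poly(A) RNA of mouse gastrocnemius was sequenced in 6 libraries, grouped into 5 stages by the ages in the labels. Per the study's methods, reads were mapped to mm9 with TopHat2 2.0.5 and quantified on RefSeq models with RSEM. The expected counts deposited by the authors are not normalized and were all whole numbers, and totalled 125402932 to 157868359 per library. The FPKM deposited by the authors are per length and library size. Whether counting used strand is not given in the sources used here. Counts were tested in R 4.3.3 with edgeR 4.0.16 (TMM, filterByExpr, quasi-likelihood test, Benjamini-Hochberg over 16882 genes), all libraries in a single fit with 1 residual degree of freedom and a common biological coefficient of variation of 0.188. Standard errors were derived from that test, as the size of the log2 fold change divided by the square root of its F value. There were 6 comparisons: each stage with the next, and 2 longer spans (E18.5 with adult, PN2 with PN28). All 8 members were named in each, other genes from pathway and marker lists, and the 3 genes closest to each member in course among those reaching 10 CPM. Alternatives were library size alone, DESeq2 1.42.0 (size factors, Wald test), edgeR's exact test, other filters, leaving out a PN14 replicate, and counts in place of FPKM for shares. The members, lists and tests were chosen with earlier results of these data known. Gene models came from GENCODE M1 (mm9), promoter windows from RefSeq (GRCm38.p6, placed on mm9 by exact match), and identities from Biopython 1.88 alignments.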

Additional observations from a re-analysis of the deposited data

How the results depend on the processing

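Of 320 member fold changes recomputed under the alternatives, 282 kept their direction and, where tested, their side of the thresholds. Among the 282 were 16 values without PN14 replicate 1 and 16 without replicate 2, which had no test and could not change a call. Of the remainder, 32 passed the thresholds that had not, 2 no longer passed and 4 changed sign. The 4 were all with library size alone: Myl6b from PN2 to PN14 (-0.0044), Myl2 from PN28 to adult (-0.12), Myl3 from E18.5 to adult (-0.25) and Myl2 from PN2 to PN28 (-0.13). The 2 were Myl2 from E18.5 to adult with library size alone (0.64, adjusted p = 0.122) and Mylk2 from PN2 to PN28 with DESeq2's Wald test (2.69, adjusted p = 0.107). The number of members called from PN2 to PN14 was 3, and 5 with library size alone, 5 with DESeq2's Wald test and 6 with edgeR's exact test. Of the 16882 genes tested, 3884, 5825, 3323 and 4663 were called, in that order. From PN14 to PN28 the members called were 0, then 4, 1 and 1 with the same alternatives, and 1 with no filter. All genes called were 3, then 262, 135 and 241, and 56 of the 19590 tested with no filter. From PN28 to adult the members called were 0, 3, 1, 1 and 1 over the same settings. All genes called were 88, 868, 808, 1146 and 835. From PN2 to PN28 the members called were 3, and 6 with library size alone and 5 with the exact test. All genes called were 4566, 7151 and 5369. From E18.5 to adult the members called were 5, and 7 with DESeq2's Wald test or the exact test. All genes called were 7584, 6468 and 8155. DESeq2's size factors in the edgeR fit moved no member's call. The cause of these differences was not tested, beyond the shift of all genes with library size alone. Without either PN14 replicate no residual degree of freedom is left, so only values can be given. Mylk2 from PN2 to PN14 ran from 0.80 to 2.17, the Myl3 share at PN14 from 3.75% to 5.02%, the Myl2 share from 2.74% to 3.02%, and Mylk2 per 1000 Mylpf from 2.54 to 4.78. Counts in place of FPKM, which ignore length, gave 13.0% for Myl4 at E18.5, 2.39% for Myl2 at PN14, 1.01 for Mylpf over Myl1 in the adult library, and 124 and 15.1 for Mylk2 per 1000 Mylpf in the adult library and at PN14. By Pearson correlation, 2 of 24 like genes were the same. No paired analysis was possible because only PN14 has replicate numbers. Depth did not limit any member, since the lowest count was 497.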
